A study of Mus musculus with 6 samples.

Results

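The axon guidance ligands and receptors of mouse hippocampus are described here: ephrins and Eph receptors, semaphorins with plexins and neuropilins, Slits and Robos, and netrins with DCC and the UNC5 receptors. Members were taken by gene name. Of the 15639 rows of the gene table, 67 had a name beginning with Sema, Plxn, Epha, Ephb, Efna, Efnb, Robo, Slit (Slitrk genes excepted) or Unc5, or equal to Nrp1, Nrp2, Ntn1, Ntn4, Ntng1, Ntng2 or Dcc. Among these names Unc50 belongs to a membrane protein of another family and met the letters alone. The remaining 66 genes, 34 ligands and 32 receptors in 14 families, are the subject of all counts below.

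Hippocampus was sequenced at 6 months of age from mice labelled APP/PS1, which carry the APP695swe and PS1-dE9 alleles (mutant amyloid precursor protein and presenilin), and from mice labelled wild type (WT). There were 3 libraries per label. The labels give no strain, sex, litter, batch or transgene promoter, and nothing says that the replicates were separate animals, so p-values measure the spread between these libraries only. Gene values are taken to be FPKM, fragments scaled to transcript length and to library size. The unit is not stated and was inferred from the values. Under that unit, levels can be set side by side between genes of different length.

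Guidance cues steer growing axons by attraction or repulsion. Ephrins are membrane-bound and signal to Eph receptor tyrosine kinases on touching cells. Semaphorins act through plexins, the secreted class 3 members mostly with neuropilins as co-receptors. Slits are secreted and act through Robos, and netrin-1 attracts through DCC and repels with UNC5 receptors. In the adult hippocampus many of the same proteins are known at synapses, where they shape dendritic spines and plasticity.

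App and Prnp, read first as a check of the labels, went against 1 library of each label. App, the gene of the amyloid precursor protein, stood at 153.1, 71.0 and 166.2 FPKM in APP/PS1 replicates 1 to 3, as labelled, against 69.8, 68.5 and 145.6 FPKM in WT replicates 1 to 3 (exact two-sided permutation p = 0.2, where 3 against 3 libraries cannot go below 0.1). Prnp, the prion protein gene, had 471.6, 198.6 and 463.8 FPKM in APP/PS1, against 188.1, 181.5 and 457.2 FPKM in WT. Groups below are therefore named by label, and results are also given for the 4 libraries left without APP/PS1 replicate 2 and WT replicate 3. Library totals lay between 182355 and 185217 FPKM, and the read depth behind them is unknown. Markers of hippocampal neurons were present, and some measures separated the labels. Prox1 of dentate granule cells had 14.2, 13.7 and 12.7 FPKM in APP/PS1, against 15.5, 14.4 and 19.98 FPKM in WT. The sum of 9 dentate granule markers was 86.2, 79.6 and 79.3 FPKM in APP/PS1, against 88.4, 92.8 and 113.5 FPKM in WT. All 8 tested ones had a negative log2 fold change (median -0.27, and -0.135 in the 4 libraries). The mitochondrial share of FPKM, a possible sign of RNA quality but not specific to it, was 10.3, 9.7 and 11.3% in APP/PS1, against 9.3, 8.87 and 9.31% in WT. Neither measure overlapped between the labels, and their part in the label differences below was not tested.

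The guidance genes covered a wide range of levels, led by an Eph receptor and a Slit. Over the 6 libraries, 9 members averaged at least 20 FPKM, 21 at least 10 FPKM and 11 under 2 FPKM, and 39 of 66 lay above the median of all rows of the table (4.45 FPKM; the member median was 5.72 FPKM). Epha4, an Eph receptor that binds ephrins of both classes, was highest at 46.7 ± 1.23 FPKM (SD, n = 6 libraries). Slit1 followed at 42.3 ± 2.48 FPKM, Epha6 at 38.4 ± 1.54 FPKM and Efnb3 at 33.6 ± 3.05 FPKM. Each of these 4 exceeded the next in 6 of 6 libraries, although the ranges of Epha4 and Slit1, of Slit1 and Epha6, and of Epha6 and Efnb3 overlapped. Sema6b (29.4 ± 0.807 FPKM) and Sema7a (28.7 ± 2.13 FPKM) changed places between libraries, as did Plxna4 (25.8 ± 1.62 FPKM) and Plxna1 (25.1 ± 1.29 FPKM). The lowest members were Sema3a at 0.630 ± 0.112 FPKM and Epha8 at 0.714 ± 0.301 FPKM.

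By family median, Slits stood first at 19.1 FPKM, then plexins at 13.1, EphA receptors at 12.1 (the median of 7 members) and neuropilins at 10.2 FPKM. Ephrin-B ligands (9.10 FPKM), netrin-Gs (8.78), DCC alone (7.12), UNC5 receptors (6.09), Robos (4.85) and class 4 to 7 semaphorins (4.505) lay between. Ephrin-A ligands (3.43 FPKM), EphB receptors (2.78), netrins (2.28) and class 3 semaphorins (1.39) were last. Small families rest on few genes: the Slit median is that of Slit3 alone among 3 genes whose means run between 2.88 and 42.3 FPKM. Summed over members the order differed, with EphA receptors first at 120.9 FPKM, plexins and class 4 to 7 semaphorins at 113.9 FPKM each, and Slits at 64.3 FPKM. Receptors had a higher median than ligands, 7.56 against 4.11 FPKM. Medians and sums cover only genes with a row in the gene table, and Epha1, Epha2 and Efna4 had none. The places of EphA receptors and ephrin-A ligands in these orders therefore depend on which rows exist. Families were not tested against each other, since their genes are not replicates.

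**Figure D1:**
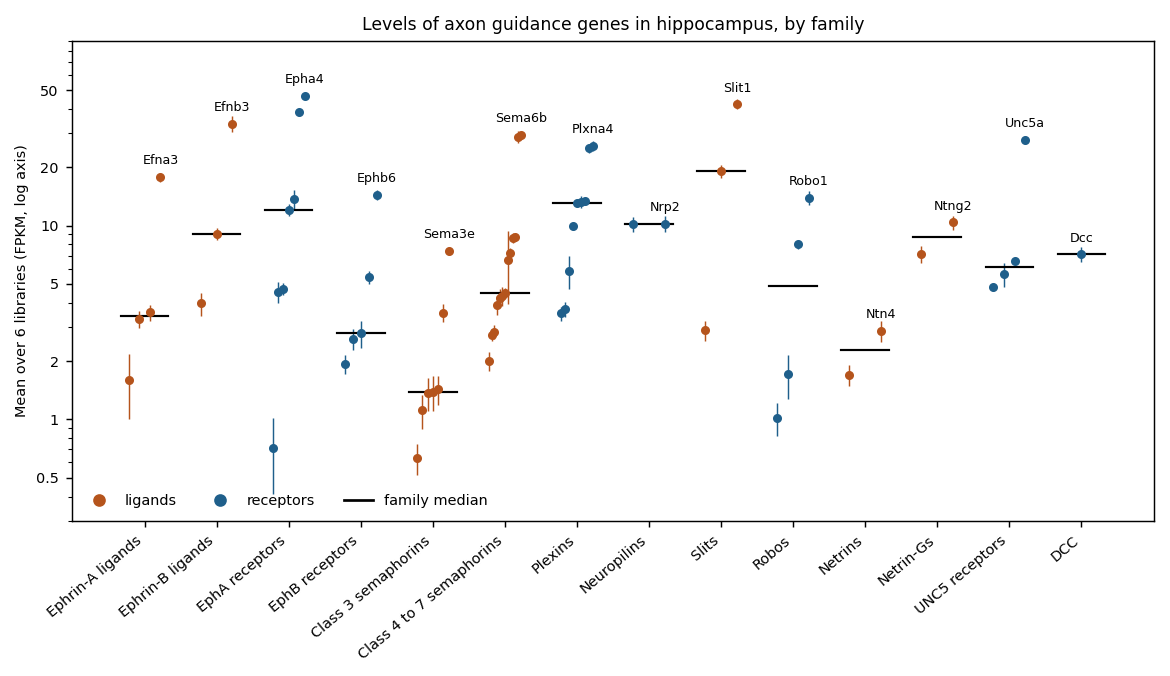
Mean level of each of 66 axon guidance genes over 6 libraries, in FPKM on a log axis, by family; error bars are the SD over libraries, black lines the family medians, and the highest member of each family is named. Epha4 (46.7 FPKM) and Slit1 (42.3 FPKM) are highest, and 6 of the 7 class 3 semaphorins lie under 5 FPKM.

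Start sites were compared to see whether members share sequence beyond their names. RefSeq promoters of GRCm38.p6, 300 bases around a transcript start and mostly upstream of it, were found for 56 of the 66 members (72 promoters). Their median held 20.5 CpG dinucleotides, against 20 over 13732 promoters of all genes in the table, and 18 of 72 (25.0%) held fewer than 10, against 22.4%. The GC box GGGCGG, on either strand, stood in 51 of 72 (70.8%), against 61.4% of all. The TATA sequence TATAAA, on either strand, stood in 2 of 72 (2.78%), against 7.22% of all. Members above the member median in level had 23 CpG at the median promoter and the others 20. Genes with several promoters count several times in these shares, among the members and in the whole table alike. Such windows can share bases, as those of Epha7 do. A match describes these letters only. A selection of 4 promoters is printed as examples, with each CpG in capitals. The promoter of Epha8, with 56 CpG, is not among them. Epha4, the highest member, is printed at chr1:77515039-77515338 (minus strand). Slit3, with 41 CpG, is at chr11:35121206-35121505 (plus strand). Robo4, a low receptor of endothelial cells with 2 CpG, is at chr9:37401722-37402021 (plus strand). Efnb1, the member of smallest p between labels, is at chrX:99135811-99136110 (plus strand).
Epha4: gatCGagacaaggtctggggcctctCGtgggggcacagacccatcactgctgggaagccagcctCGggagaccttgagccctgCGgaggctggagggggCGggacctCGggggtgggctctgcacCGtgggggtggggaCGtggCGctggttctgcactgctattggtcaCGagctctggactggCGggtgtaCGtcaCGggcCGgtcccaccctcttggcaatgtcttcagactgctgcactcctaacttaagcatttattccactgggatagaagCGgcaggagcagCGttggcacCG
Slit3: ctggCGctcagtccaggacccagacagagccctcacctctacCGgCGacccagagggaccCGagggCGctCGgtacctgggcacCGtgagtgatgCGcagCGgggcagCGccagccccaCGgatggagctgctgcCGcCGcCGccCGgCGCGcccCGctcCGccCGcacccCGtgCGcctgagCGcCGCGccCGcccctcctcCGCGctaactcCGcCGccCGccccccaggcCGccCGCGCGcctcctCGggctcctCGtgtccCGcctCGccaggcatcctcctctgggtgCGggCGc
Robo4: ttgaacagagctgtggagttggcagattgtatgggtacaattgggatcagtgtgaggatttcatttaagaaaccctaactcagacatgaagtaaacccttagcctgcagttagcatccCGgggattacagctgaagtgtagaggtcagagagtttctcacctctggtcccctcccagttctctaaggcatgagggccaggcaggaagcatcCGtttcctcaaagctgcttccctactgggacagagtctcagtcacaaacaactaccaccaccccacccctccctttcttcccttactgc
Efnb1: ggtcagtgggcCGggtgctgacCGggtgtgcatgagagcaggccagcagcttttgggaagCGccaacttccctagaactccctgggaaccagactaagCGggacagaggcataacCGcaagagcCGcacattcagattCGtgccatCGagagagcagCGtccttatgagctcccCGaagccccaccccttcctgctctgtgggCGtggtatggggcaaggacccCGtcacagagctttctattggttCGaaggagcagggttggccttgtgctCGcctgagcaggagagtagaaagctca
The Epha4 promoter held 17 CpG and 1 GC box and that of Slit3 5 GC boxes, counted without overlapping matches. Efnb1 had 14 CpG and, like Robo4, no GC box in this window.

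Ephrin-A ligands, which are held in the membrane by a lipid anchor, were led by Efna3. Efna3, known on hippocampal astrocytes as a partner of EphA4, had 17.8, 18.8 and 16.5 FPKM in libraries labelled APP/PS1, against 18.8, 17.0 and 17.9 FPKM in those labelled WT. Efna5 had 3.59, 3.55 and 3.67 FPKM in libraries labelled APP/PS1, against 2.97, 4.03 and 3.60 FPKM in WT. The groups overlapped for both, and Efna3 was 4.23 to 6.34 times as high as Efna5 in each library. Efna1 was low and variable, at 2.43, 1.46 and 2.0003 FPKM in APP/PS1 against 1.41, 1.55 and 0.709 FPKM in WT. Its log2 fold change, on the log2(FPKM + 1) scale used for fold changes here unless another is named, was 0.42 ± 0.18 (SE; limma adjusted p = 0.749), and APP/PS1 replicate 2 lay within the WT range. It was 0.24 without WT replicate 3 and 0.68 with a pseudocount of 0.1 FPKM. Efna2 ran from 2.85 to 3.75 FPKM over the 6 libraries.

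Ephrin-B ligands span the membrane and can signal backward into their own cell. Efnb3 stood at 32.5, 34.9 and 32.3 FPKM in libraries labelled APP/PS1, against 31.8, 30.9 and 39.2 FPKM in those labelled WT, with WT replicate 3 highest. Efnb2 had 9.30, 10.2 and 8.21 FPKM in APP/PS1, against 9.04, 8.97 and 8.84 FPKM in WT. Efnb1, an X-linked ephrin-B, had 3.43, 3.53 and 3.65 FPKM in APP/PS1, against 4.08, 4.36 and 4.81 FPKM in WT. The Efnb1 groups did not overlap, with 3 of 3 APP/PS1 libraries under every WT library. Its log2 fold change was -0.25 (95% interval -0.43 to -0.08), the smallest p of all members (unadjusted p = 0.0101, limma), and it did not pass when adjusted over all genes (adjusted p = 0.623, between 0.514 and 1.0 over the alternatives). In the 4 libraries it was -0.20 (adjusted p = 0.559).

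Among EphA receptors a pair stood far above the others. Epha4 had 47.2, 48.1 and 46.4 FPKM in libraries labelled APP/PS1, against 44.5, 47.3 and 46.8 FPKM in those labelled WT. Epha6 had 38.3, 38.1 and 36.7 FPKM in APP/PS1, against 37.0, 40.9 and 39.4 FPKM in WT. Epha4 was 1.16 to 1.26 times Epha6 in every library, and the label groups overlapped for each. Epha7, whose short forms can blunt ephrin-A signalling, averaged 13.7 FPKM and was highest in WT replicate 3 at 16.5 FPKM. Epha5 averaged 12.1 FPKM and Epha3 4.71 FPKM. Epha10, a receptor with an inactive kinase domain, had 4.26, 4.23 and 4.04 FPKM in APP/PS1, against 5.38, 5.18 and 4.30 FPKM in WT. The Epha10 groups did not overlap, but WT replicate 3 lay next to the APP/PS1 values; the log2 fold change was -0.20 ± 0.09 (SE; adjusted p = 0.741) and -0.29 in the 4 libraries. Epha8 lay under the filter of at least 1 FPKM in at least 3 libraries and was not tested.

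EphB receptors were lower apart from Ephb6, which like Epha10 lacks kinase activity. Ephb6 stood at 13.5, 13.9 and 15.8 FPKM in libraries labelled APP/PS1, against 14.4, 15.0 and 13.8 FPKM in those labelled WT. Ephb1 had 6.06, 4.95 and 5.26 FPKM in APP/PS1, against 5.41, 5.62 and 5.19 FPKM in WT, so that Ephb6 was 2.22 to 3.0 times as high. Ephb2, known at synapses for clustering NMDA receptors, had 2.47, 2.73 and 2.31 FPKM in APP/PS1, against 2.91, 2.99 and 2.19 FPKM in WT. The groups overlapped for these receptors, and the log2 fold changes were 0.00 for Ephb6 (95% interval -0.16 to 0.16), 0.00 for Ephb1 and -0.07 for Ephb2. Ephb3 and Ephb4 averaged 2.78 and 1.92 FPKM.

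Secreted class 3 semaphorins had the lowest family median, while their sum of 16.9 FPKM was above that of the netrins (4.56 FPKM). Sema3e, which binds plexin-D1 without a neuropilin, had 7.18, 7.69 and 7.59 FPKM in libraries labelled APP/PS1, against 7.07, 7.09 and 7.85 FPKM in those labelled WT. Sema3c had 3.86, 3.40 and 4.03 FPKM in APP/PS1, against 3.60, 2.97 and 3.47 FPKM in WT. Sema3f, a repellent that acts through neuropilin-2, had 1.46, 1.85 and 1.23 FPKM in APP/PS1, against 1.18, 1.31 and 1.16 FPKM in WT. The groups overlapped for all 3. Sema3b, Sema3d and Sema3g averaged 1.43, 1.39 and 1.12 FPKM, and Sema3a, the classic collapsing factor of growth cones, lay under the filter.

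The membrane-bound semaphorins of classes 4 to 7 held far more transcript, 113.9 FPKM summed over 13 genes against 16.9 FPKM over the 7 secreted ones. Sema6b, a transmembrane ligand of A-type plexins, had 30.1, 29.2 and 28.4 FPKM in libraries labelled APP/PS1, against 30.3, 29.8 and 28.6 FPKM in those labelled WT. Its interval between labels was narrow, -0.13 to 0.10 on the log2 scale. Sema7a, which is lipid-anchored and binds plexin-C1 and integrins, had 29.2, 27.96 and 29.7 FPKM in APP/PS1, against 30.0, 30.6 and 24.8 FPKM in WT, where replicate 3 was lowest. Sema4f stood at 7.001, 6.77 and 6.98 FPKM in APP/PS1, against 7.36, 7.83 and 7.46 FPKM in WT. The Sema4f groups did not overlap, with a log2 fold change of -0.11 ± 0.05 (SE; adjusted p = 0.797). Sema4d, a plexin-B1 ligand, and Sema6d averaged 8.74 and 8.65 FPKM. Sema5a, a transmembrane semaphorin with thrombospondin repeats, is given because its spread was seen to be wide: it had 4.48, 5.61 and 6.83 FPKM in APP/PS1, against 5.81, 5.27 and 11.99 FPKM in WT. WT replicate 3 stood at 2.14 times the median of the other 5 libraries. The Sema5a interval between labels was the widest of all members tested, -1.06 to 0.42, and its log2 fold change was 0.00 in the 4 libraries, against -0.32 in all 6. Sema4b, Sema4g, Sema4a, Sema6a, Sema6c, Sema4c and Sema5b averaged between 2.003 and 4.505 FPKM, with overlapping groups.

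Plexins carry the semaphorin signal into the cell through a GTPase-activating domain. Plxna4 had 24.8, 26.1 and 23.2 FPKM in libraries labelled APP/PS1, against 27.7, 26.3 and 27.0 FPKM in those labelled WT. Plxna1 had 24.7, 27.1 and 23.4 FPKM in APP/PS1, against 25.4, 25.7 and 24.5 FPKM in WT. The Plxna4 groups did not overlap, the highest APP/PS1 library lying just under the lowest WT library; the log2 fold change was -0.13 ± 0.06 (SE; adjusted p = 0.765). Plxnc1, the receptor of semaphorin 7A, also had no overlap, at 9.63, 10.01 and 9.18 FPKM in APP/PS1 against 10.28, 10.45 and 10.17 FPKM in WT (log2 fold change -0.09, adjusted p = 0.832). Plxna2, Plxnb1 and Plxnb2 averaged 13.5, 13.3 and 13.1 FPKM. Plxnb3, known from oligodendrocytes, had 4.02, 3.60 and 4.11 FPKM in APP/PS1, against 3.28, 3.67 and 3.503 FPKM in WT. The sum of 10 oligodendrocyte markers was 470.7, 422.9 and 511 FPKM in APP/PS1, against 394.4, 351.1 and 449.7 FPKM in WT, all 10 had a positive log2 fold change, and the part of this in Plxnb3 was not tested. In bulk tissue, more cells of a type and more RNA per cell cannot be told apart. Plxnd1, a receptor of endothelial cells and some neurons, had 6.53, 5.48 and 6.64 FPKM in APP/PS1, against 6.59, 6.04 and 3.68 FPKM in WT, and WT replicate 3 was 0.564 times the median of the others. The 8 endothelial markers summed to 47.9 FPKM in that library, against 45.5 to 54.9 FPKM over all 6, and their part in the Plxnd1 value was not tested. Plxna3 averaged 3.53 FPKM.

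The neuropilins, co-receptors for class 3 semaphorins and VEGF, were close to each other in level. Nrp1 had 9.26, 10.9 and 9.11 FPKM in libraries labelled APP/PS1, against 10.004, 10.4 and 11.4 FPKM in those labelled WT. Nrp2 had 10.1, 10.2 and 9.50 FPKM in APP/PS1, against 9.81, 9.71 and 12.2 FPKM in WT. Nrp1 exceeded Nrp2 in 3 of 6 libraries. WT replicate 3 was highest for both, and the label groups overlapped.

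Slits were high in this tissue, with Slit1 far above Slit2. Slit1, a secreted repellent made by neurons, had 40.6, 42.0 and 39.6 FPKM in libraries labelled APP/PS1, against 41.7, 43.2 and 46.7 FPKM in those labelled WT. Slit3 had 18.1, 19.5 and 16.7 FPKM in APP/PS1, against 20.1, 19.4 and 20.9 FPKM in WT. Slit2 had 3.30, 2.73 and 2.33 FPKM in APP/PS1, against 2.91, 2.96 and 3.04 FPKM in WT. Slit1 was 2.08 to 2.37 times Slit3 and 12.3 to 17 times Slit2 in each library. Each Slit alone overlapped between labels, while their sum did not: 62.0, 64.2 and 58.7 FPKM in APP/PS1 against 64.7, 65.6 and 70.7 FPKM in WT. It was the only family sum without overlap among the 14 (7.14%), and no p is given for it. Of all single genes 11.9% did not overlap, which is a different measure from a share of sums. The dentate granule marker sum and the mitochondrial share given above also separated the labels. WT replicate 3 was highest for both the Slit sum and the dentate marker sum, although Slit2 alone was highest in APP/PS1 replicate 1. The part of the dentate markers and the mitochondrial share in the Slit sum was not tested. For single Slits the log2 fold changes were -0.10 for Slit1 (adjusted p = 0.813), -0.15 for Slit3 (adjusted p = 0.776) and -0.08 for Slit2.

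Robos, the Slit receptors, held less transcript than their ligands, 24.7 FPKM summed over 4 genes against 64.3 FPKM over 3 Slits. Robo1 had 13.7, 14.3 and 13.5 FPKM in libraries labelled APP/PS1, against 12.5, 13.9 and 15.8 FPKM in those labelled WT. Robo2 had 8.61, 7.51 and 7.69 FPKM in APP/PS1, against 8.07, 8.22 and 7.88 FPKM in WT. Both overlapped, and Robo1 was 1.54 to 2.01 times Robo2. Robo4 had 0.826, 1.09 and 0.735 FPKM in APP/PS1, against 1.24, 1.15 and 1.05 FPKM in WT, with APP/PS1 replicate 2 inside the WT range. Its log2 fold change was -0.19 ± 0.10 (SE; adjusted p = 0.808). Robo3, which directs axons across the midline, averaged 1.71 FPKM and was lowest in APP/PS1 replicate 2 at 1.13 FPKM.

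Netrin ligands were scarce beside their receptors. Ntn1 had 1.37, 1.97 and 1.55 FPKM in libraries labelled APP/PS1, against 1.69, 1.88 and 1.71 FPKM in those labelled WT. Dcc, the attractive netrin receptor, had 7.15, 6.90 and 6.57 FPKM in APP/PS1, against 6.45, 7.80 and 7.88 FPKM in WT. Dcc was 3.51 to 5.21 times Ntn1 in each library, and both overlapped between labels. Ntn4, a netrin that binds laminin, had 2.70, 2.97 and 2.67 FPKM in APP/PS1, against 2.37, 3.45 and 3.04 FPKM in WT. The netrin-Gs are lipid-anchored, bind partners of the NGL family instead of DCC and were higher than the netrins. Ntng2 had 10.8, 8.66 and 10.7 FPKM in APP/PS1, against 10.7, 10.8 and 10.7 FPKM in WT, and Ntng1 6.78, 5.99 and 7.33 FPKM in APP/PS1, against 8.22, 7.35 and 7.28 FPKM in WT. APP/PS1 replicate 2 was lowest for both genes. Ntng1 had a log2 fold change of -0.16 (adjusted p = 0.806), or -0.12 in the 4 libraries without that one and WT replicate 3.

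UNC5 receptors were led by Unc5a. Unc5a had 28.9, 28.9 and 25.2 FPKM in libraries labelled APP/PS1, against 28.4, 27.4 and 27.5 FPKM in those labelled WT. Unc5c had 6.37, 6.58 and 6.72 FPKM in APP/PS1, against 6.56, 6.82 and 6.37 FPKM in WT. Both overlapped, and the interval of Unc5c was -0.14 to 0.13. Unc5d, which also binds the adhesion protein FLRT2, had 6.47, 6.25 and 5.96 FPKM in APP/PS1, against 4.84, 4.43 and 5.73 FPKM in WT. The Unc5d groups did not overlap, with WT replicate 3 closest to APP/PS1. Its log2 fold change was 0.27 (95% interval 0.06 to 0.48; unadjusted p = 0.0176, limma) and it did not pass over all genes (adjusted p = 0.652, between 0.359 and 1.0 over the alternatives). In the 4 libraries the log2 fold change was 0.36 (adjusted p = 0.386). Unc5b averaged 4.81 FPKM. Unc50, the row outside the family, had 9.39, 9.36 and 8.18 FPKM in APP/PS1, against 8.64, 7.54 and 8.25 FPKM in WT.

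**Figure D2:**
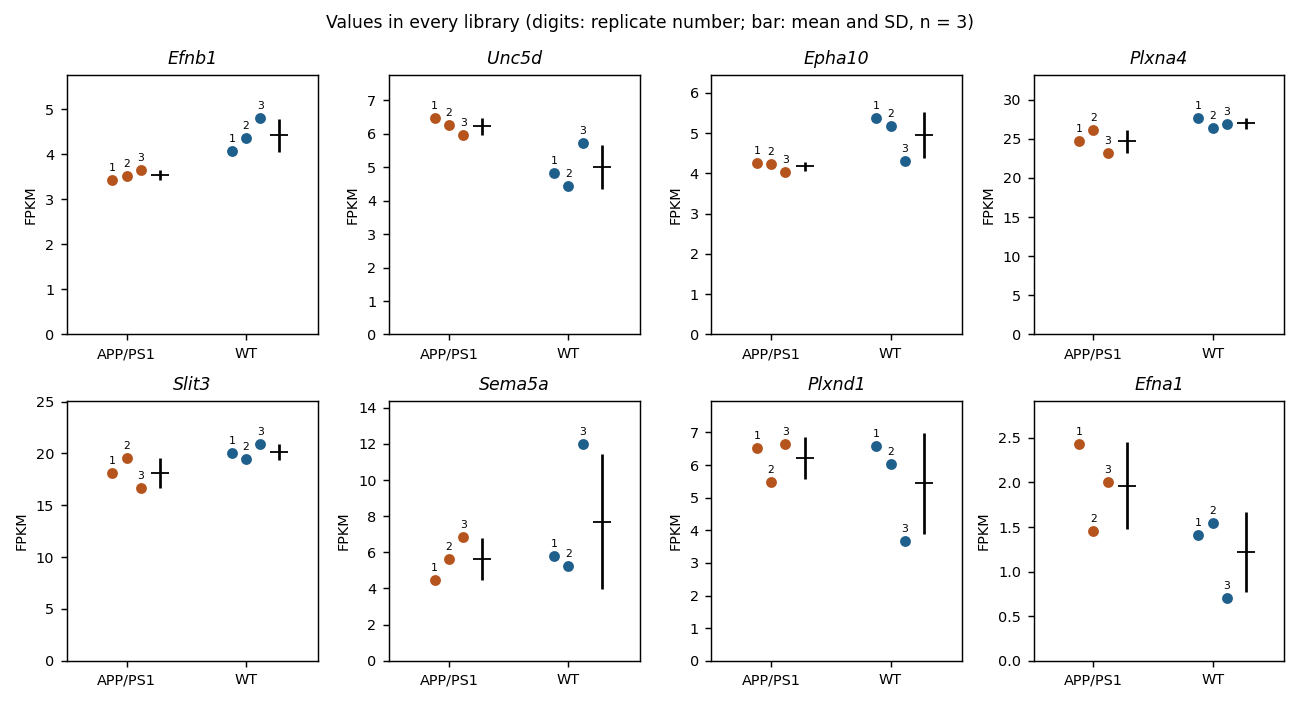
FPKM in every library for 8 members (points, with replicate numbers; bar and tick, mean and SD over n = 3 libraries per label), APP/PS1 left of WT. Efnb1, Epha10 and Plxna4 lie lower and Unc5d higher in APP/PS1 without overlap, Slit3 overlaps, and WT replicate 3 stands apart in Sema5a (11.99 FPKM), Plxnd1 (3.68 FPKM) and Efna1 (0.709 FPKM).

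Across the whole set, no guidance gene passed between the labels. Of 64 tested members, 0 had an adjusted p under 0.05 by limma over all 13700 genes tested, of which 3 passed (0.0219%), 1 higher (0.0073%) and 2 lower (0.0146%). At an unadjusted p under 0.05 there were 2 members (3.12%, against 6.69% of all genes), Unc5d higher and Efnb1 lower, beside 391 genes (2.85%) higher and 525 (3.83%) lower in the whole table. Libraries did not overlap for 1 member on the higher side (1.56%), against 5.38% of all genes, and for 5 on the lower side (7.81%), against 6.51%, together 9.38% against 11.9%. The 5 were Efnb1, Epha10, Sema4f, Plxna4 and Plxnc1. All these shares lay below or near those of the whole table. Negative fold changes were found for 37 of 64 members (57.8%), against 50.4% of all genes. The member median was -0.0195, against -0.00089 for all genes, and the members ran from -0.32 (Sema5a) to 0.42 (Efna1).

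On the log2(FPKM + 1) scale the 95% interval of the log2 fold change lay within 0.5 of 0 for 60 of 64 members, and it reached past 0.5 for Efna1, Sema5a, Plxnd1 and Robo3. This scale shrinks differences of low members: with a pseudocount of 0.1 FPKM the interval reached past 0.5 for 10 members and lay within it for 54. The intervals take the labels as given, with the 2 libraries whose App and Prnp went against them. By family, the median log2 fold change ran between -0.13 for netrin-Gs and 0.04 for class 3 semaphorins. All 3 Slits and all 4 Robos were negative, with medians of -0.10 each, as were both neuropilins, both netrins, both netrin-Gs and DCC. In the 4 libraries Robo1 (0.04), Nrp2 (0.00) and Ntng2 (0.00) had positive values instead. Slit2, Robo2 and Ntn4 were positive with a single library left out (APP/PS1 replicate 3, APP/PS1 replicate 2 and WT replicate 2 in that order). Of 9 plexins 6 were negative, of 13 class 4 to 7 semaphorins 7, and of 5 EphB receptors 1. Class 3 semaphorins had 5 of 6 tested members positive and ephrin-A ligands 3 of 4. None of these families was tested against another.

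**Figure D3:**
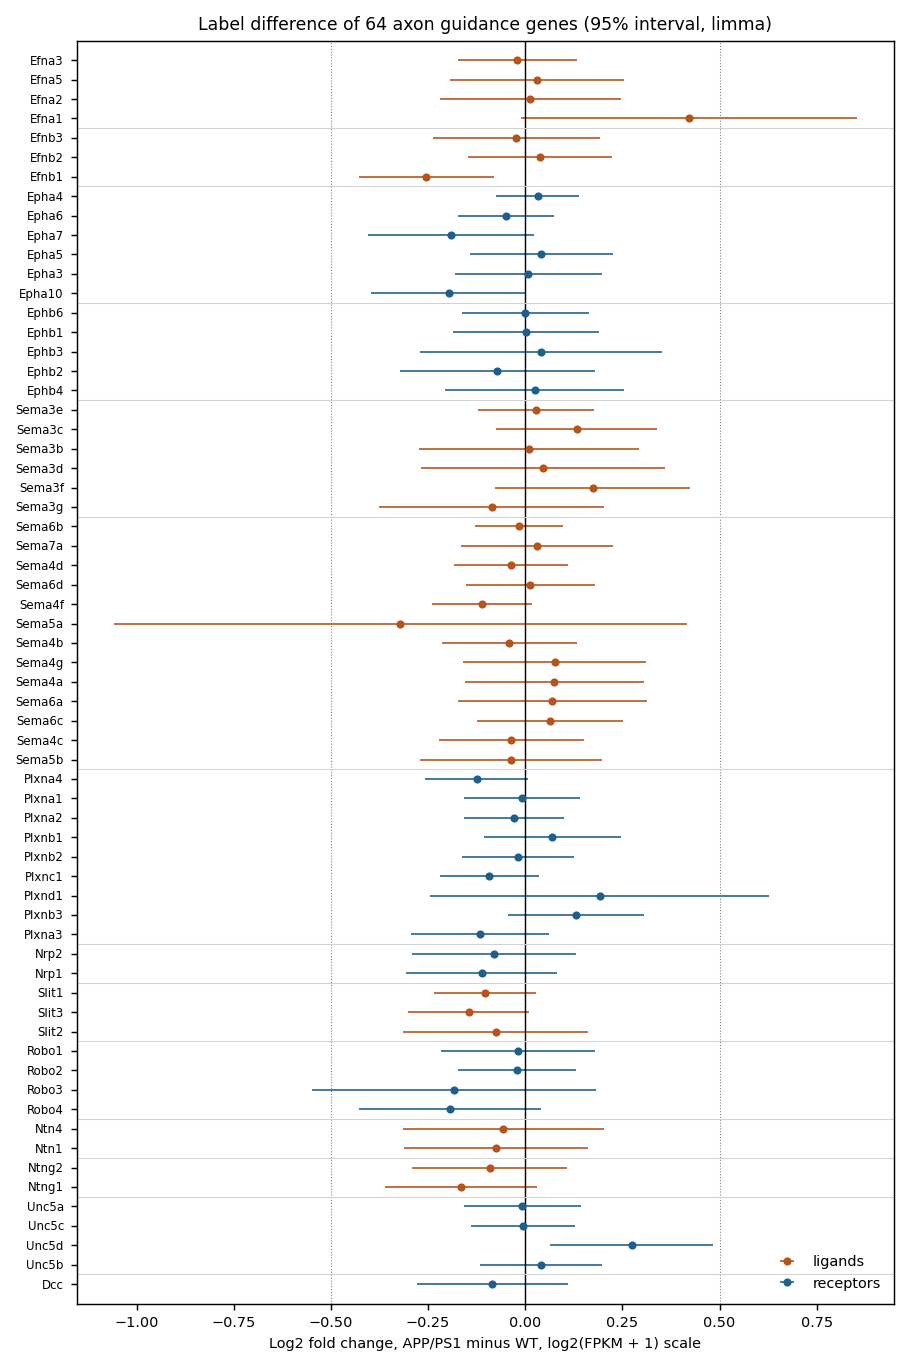
Log2 fold change of APP/PS1 over WT for 64 tested members, on the log2(FPKM + 1) scale, with 95% intervals from limma, ordered by family and then by level; dotted lines mark 0.5 either way. Intervals of Efnb1 (-0.43 to -0.08) and Unc5d (0.06 to 0.48) leave out 0 before adjustment, and that of Sema5a is the widest.

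In the 4 libraries whose App and Prnp followed their labels, 0 members passed by limma over all genes, where 27 of 13700 (0.197%) did. An unadjusted p under 0.05 was found for Unc5d and Efna1 on the higher side, against 4.2% of all genes, and for Epha10, Robo4, Slit3 and Plxna4 on the lower side, against 4.98%. Their log2 fold changes were 0.36, 0.37, -0.29, -0.30, -0.17 and -0.17 in that order. Of these 4 libraries, Robo4 reached the filter level of 1 FPKM only in those labelled WT, the group where it was higher. Its p is therefore not read as a difference. The member median was -0.04. These 4 libraries were chosen after the data were seen.

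In a few members a single library stood well apart from the others. Over the 6 libraries the members had a median coefficient of variation of 8.37%, against 9.03% for all tested genes. The 3 widest gaps between a library and its nearest neighbour on the log2 scale were all in WT replicate 3: 0.73 for Sema5a (high), 0.50 for Efna1 (low) and 0.47 for Plxnd1 (low). Ephb3 was low there too (2.03 FPKM, 0.717 times the median of the others), and Nrp2 and Epha7 were high (1.25 and 1.2 times). Beside these, the 9 dentate granule markers, whose sums did not overlap between labels, were highest in WT replicate 3 at 113.5 FPKM. The 8 choroid plexus markers were lowest there, at 862.6 FPKM, against 1075 to 1397 FPKM in the other 5 libraries. All 8 also had a positive log2 fold change between labels (median 0.301, and 0.125 in the 4 libraries), while their sums overlapped. The part of these markers in the members' values was not tested.

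**Figure D4:**
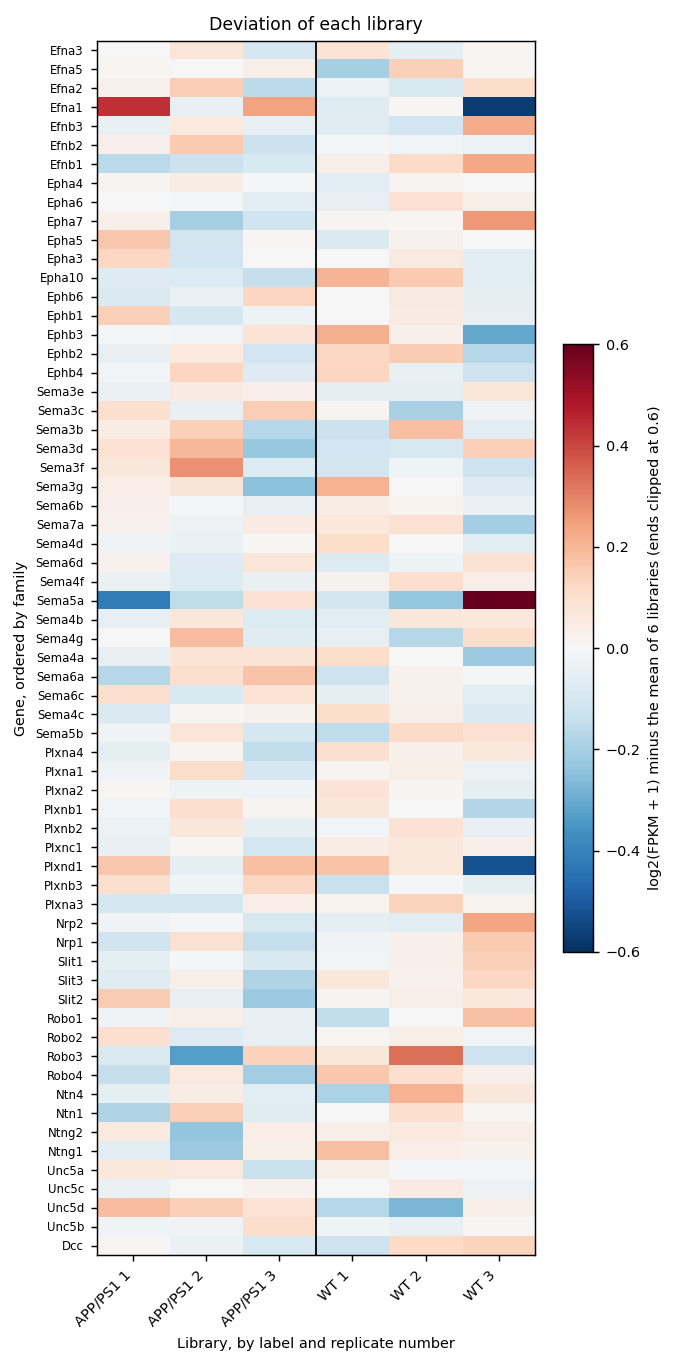
Deviation of each library from the mean of the 6 on the log2(FPKM + 1) scale, for 64 tested members in family order, APP/PS1 left of WT (colour ends clipped at 0.6). Deep colours are few and mostly in WT replicate 3, where Sema5a is high and Efna1 and Plxnd1 are low.

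Genes that work with these ligands and receptors inside the cell or as partners gave 0 calls as well. Of 56 tested genes of guidance signalling (cytoskeletal regulators, small GTPases and their exchange factors, CRMP proteins), 0 passed over all genes (0.0219% of the whole table did), 29 were positive and the median log2 fold change was 0.01. At an unadjusted p under 0.05, 0 were higher, against 2.85% of all genes, and 2 lower (3.57%, against 3.83%). Arhgap39, whose Drosophila counterpart acts with Robo, had 16.4, 16.8 and 17.4 FPKM in APP/PS1, against 21.5, 19.1 and 18.5 FPKM in WT, with no overlap (limma adjusted p = 0.642). Of all genes tested 11.9% did not overlap, and this share was not taken for the 2 lists given here. Dpysl5, a CRMP family member, had 2.02, 1.82 and 3.63 FPKM in APP/PS1, against 3.33, 3.62 and 3.97 FPKM in WT, with 1 library of APP/PS1 inside the WT range. Of 27 tested partners and co-receptors 0 passed, 15 were positive and 12 negative, and the median log2 fold change was 0.02. At an unadjusted p under 0.05, 0 were higher and 3 lower (11.1%, against 3.83% of all genes). Lrrc4, the NGL-2 partner of netrin-G2, was among them at 24.03, 23.2 and 23.03 FPKM in APP/PS1, against 25.7, 27.2 and 24.8 FPKM in WT (limma adjusted p = 0.704). Its libraries did not overlap between labels, and the same held for Sdc4 and Met, the others of these 3. Sdc4, a heparan sulfate proteoglycan, had 27.04 ± 1.72 FPKM in APP/PS1 and 31.4 ± 1.67 FPKM in WT (SD, n = 3 each; limma adjusted p = 0.639), and Met, a receptor tyrosine kinase that pairs with plexins, 1.08 ± 0.135 FPKM in APP/PS1 and 1.57 ± 0.286 FPKM in WT (limma adjusted p = 0.696).

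Circular RNA offered a second readout for 1 member. Of 2246 circRNAs listed with whole-number reads, 257 carried coordinates and 1 of these lay inside a guidance gene, at chr5:14224286-14226704 on the plus strand within Sema3e, as the files give it. The submitters list the build mm9, but 253 of the 257 lay inside a gene of the GRCm38 RefSeq table, which was used for the match. It spans 2419 bases of the gene. It had 2, 5 and 2 reads in libraries labelled APP/PS1, against 0, 7 and 0 in those labelled WT, from totals of 13998 to 19584 circRNA reads. A count of 0 still allows 214 CPM (counts scaled to the circRNA total) in WT replicate 1 and 159 in WT replicate 3 (a floor of 3 counts per library, counting error only). The circle was not called by edgeR (log2 fold change 0.23, adjusted p = 0.948 over all circRNAs tested). Among the 2132 tested circRNAs 1 was called (0.0469%), and 5.3% had an unadjusted p under 0.05, which this circle did not with all libraries. The value rests on WT replicate 2, the only WT library with reads of it: without that library the unadjusted p was 0.0358 by edgeR (adjusted p = 0.848). Among the libraries then left, only those labelled APP/PS1 reached the 2 reads of the filter. The circle thus stayed in the test through the group where it was higher, and this p is not read as a difference. The linear Sema3e values likewise overlapped between labels.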

How the data were processed

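Both a gene table and a circRNA table belonged to each of 6 hippocampal libraries. The gene tables hold FPKM deposited by the authors; this unit was inferred from decimals and library totals, since the files do not state it. The submitters' processing notes list FastQC, HISAT2, StringTie and the build mm9, without roles or versions. Settings for counting and strand are not stated in the labels, so antisense reads could not be told apart. The circRNA tables hold raw read counts deposited by the authors, with no caller stated in the labels.

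Genes reaching 1 FPKM in 3 or more libraries (13700) were fitted with limma 3.58.1 (R 4.3.3; empirical Bayes with trend and robust settings) on log2(FPKM + 1), label as the only term, with Benjamini-Hochberg adjustment over all genes and a threshold of 0.05. The pseudocount of 1 understates fold changes of low genes. For circRNAs (2132 with 2 reads or more in 3 or more libraries), the quasi-likelihood test of edgeR 4.0.16 with TMM was used, and DESeq2 1.42.0 as an alternative. Both fits were tested on simulated data. Members were chosen by name, and members and lists were chosen with earlier results of these data known. Library values were given for members past the threshold, the highest 2 of each family (1 in families of fewer than 3), the smallest p of each family and members with an unadjusted p under 0.05. Sema5a, Plxnd1, Plxnb3, Plxnc1, Slit2 and Unc50 were added after their values were seen, as were the single-library gaps named. Alternatives were a pseudocount of 0.1, no filter or 5 FPKM, quantile scaling, limma without trend and robust settings, the replicate number as a block, and each library left out; the fit to 4 libraries was added after seeing the data.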

Additional observations from a re-analysis of the deposited data

How the results depend on the processing

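No member, no gene of the pathway lists and not the Sema3e circle passed the adjusted threshold under any alternative run, including the 4 libraries. Signs were less fixed: of the 64 members, 14 changed sign in the 4 libraries, 14 without WT replicate 3, and 5 to 12 with any other library left out, while 1 did with a pseudocount of 0.1 FPKM and 1 with quantile scaling. Counts at an unadjusted p under 0.05, 1 higher and 1 lower with all libraries, were less stable. On the lower side the count was 0 with a filter of 5 FPKM, which leaves Efnb1 out of the test, 2 without the trend and robust settings, and 4 in the 4 libraries. On the higher side it was 2 in the 4 libraries. Leaving out single libraries gave 0 on the higher side without APP/PS1 replicate 1 and 2 without replicate 2 or 3 of that label. On the lower side it gave 5 without APP/PS1 replicate 2, 1 without WT replicate 2 and 2 without any of the others. In the 4 libraries 4.2% of all genes were at this unadjusted p (limma) on the higher side and 4.98% on the lower. Such shares were not taken for the other alternatives, so those counts are not read as a change in the members. The member median of -0.0195 was -0.0416 in the 4 libraries and -0.00324 with quantile scaling, and with single libraries left out it ran between -0.0435 (no APP/PS1 replicate 2) and -0.00104 (no APP/PS1 replicate 3). The cause of the other shifts was not tested. Calls over the whole table numbered 3, against 1 with the replicate block, 27 in the 4 libraries, and with single libraries left out 30 (APP/PS1 replicate 2), 6 (APP/PS1 replicate 1), 5 (APP/PS1 replicate 3), 11 (WT replicate 3), 7 (WT replicate 1) and 2 (WT replicate 2). For libraries of equal replicate number, correlations of deviations from the label means were 0.00983, -0.0561 and -0.0941 for numbers 1 to 3. Not every library correlated best with its own number. These values gave no sign of pairing, but 3 libraries per label cannot exclude it. With the replicate block 1 member was higher and 1 lower at an unadjusted p under 0.05 (limma), and the median stayed at -0.0195. Family levels by sum in place of median were 120.9 FPKM for EphA receptors, 113.9 for plexins and for class 4 to 7 semaphorins, 64.31 for Slits, 46.68 for ephrin-B ligands, 44.71 for UNC5 receptors, 27.1 for EphB receptors, 26.26 for ephrin-A ligands, 24.66 for Robos, 20.42 for neuropilins, 17.55 for netrin-Gs, 16.9 for class 3 semaphorins and 4.562 for netrins. Without read depth, no counting error can be given for low members such as Sema3a or Epha8.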

Other observations

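Guidance genes were spread unevenly over the libraries as extremes. APP/PS1 replicate 3 was the lowest of the 6 libraries for 21 of 64 members (32.8%), against 18.5% of all tested genes, and the highest for 6 (9.38%), against 14.9%. WT replicate 2 was the highest for 14 members (21.9%), against 15.6%, and the lowest for 5 (7.81%), against 18.2%. The median deviation of the members from the mean of the 6 libraries was -0.049 log2 units in APP/PS1 replicate 3 and 0.0292 in WT replicate 2, against -0.0043 and -0.00236 for all genes. The mitochondrial share of FPKM, higher in 3 of 3 APP/PS1 libraries than in any WT library, was highest in APP/PS1 replicate 3 (11.3%) and lowest in WT replicate 2 (8.87%), and its part in the members' values was not tested.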
